A study of Mus musculus with 60 samples.

Results

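The genes Fos, Fosb, Fosl2, Jun and Jund encode subunits of the transcription factor AP-1. Their rows were taken by symbol from an expression table of 10122 genes in 60 libraries of mouse fibroblasts, which gives 5 genes in all 20 groups of the study. The values are in FPKM, a level corrected for transcript length and library size. The cells were 1 line of immortalised ear fibroblasts grown out of adult DKI mice, with fluorescent reporters on the endogenous RelA and c-Rel proteins. The labels name the line with GR NLS-iRFP-NLS. After a night at 37 °C the dishes were moved to 24, 34, 37 or 40 °C for 2 h. At each temperature 1 group received TNF-α for 1 h, 1 group TNF-α for 3 h, 1 group IL-1β for 1 h and 1 group IL-1β for 3 h, both cytokines at 10 ng/mL, and 1 group was taken unstimulated at the end of the 2 h. Each of these 20 groups has 3 biological replicates. Stimulated cells had thus spent 3 or 5 h at their temperature and unstimulated cells 2 h. No unstimulated group was kept for the longer times, so a response to a cytokine cannot be told apart from the added hours at that temperature.

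AP-1 is a dimer of a Fos-family and a Jun-family protein, or of a pair of Jun proteins, held together by leucine zippers and bound to DNA elements such as TGACTCA. In fibroblasts Fos and Fosb are classical immediate-early genes, switched on within minutes by serum or growth factors, and the AU-rich 3′ end of their mRNAs makes them short-lived. TNF-α and IL-1β act on AP-1 mainly through the stress kinases JNK and p38, with JNK phosphorylating Jun. Fosl2 and Jund are present in unstimulated cells at steadier levels, and Fosl2, unlike Fos and FosB, has no strong activation domain of its own.

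Of 8 fibroblast markers 7 were in the table, with Col1a1 at 843 to 1732 FPKM and Vim at 1913 to 2929 FPKM. The endothelial Pecam1, the leukocyte Ptprc and the keratinocyte Krt5 and Krt14 were not analysed here. Krt10, Cd68 and Vwf averaged 1.27, 1.01 and 0.426 FPKM and Lyz2, also of leukocytes, 2.64 FPKM. Of the chondrocyte markers Sox9 had 5.23 to 18.1 FPKM, Comp 3.48 to 8.6 FPKM and Col9a1 0 to 1.55 FPKM, and Acan and Col2a1 were not analysed here. The adipocyte Fabp4 had 2.06 to 13.5 FPKM, and the muscle Acta1 and Des averaged 3.42 and 0.839 FPKM. The 3 chondrocyte genes summed to 16.8 to 24.3 FPKM in the 24 °C libraries against 12.2 to 21.2 FPKM at 37 °C. At 34 and 40 °C the sums were 11.7 to 15.7 and 15.4 to 23.4 FPKM. In unstimulated cells Sox9 (log2 change 1.02, adjusted p = 2.33e-06 by limma) and Col9a1 (0.63, adjusted p = 0.00846) were higher at 24 than at 37 °C. Comp was not called and its mean was lower (-0.26, adjusted p = 0.295). Of the fibroblast markers, Col3a1 (-0.65, adjusted p = 1.64e-07) and Col1a2 (-0.46, adjusted p = 0.00559) were lower at 24 °C and Vim (0.17, adjusted p = 0.0084) was higher. The part of these genes in the results at 24 °C was not tested. The depth of each library, recovered from the steps between low FPKM values, was about 3470000 to 7550000 fragments. The 15 libraries at 24 °C had 3470000 to 5120000 fragments and the 15 at 37 °C had 5520000 to 7210000. The part of this difference in the results at 24 °C was not tested. At the median depth 1 FPKM corresponds to about 11.5 fragments of Fos, 21.7 of Fosb, 38.4 of Fosl2, 18.1 of Jun and 8.8 of Jund. These numbers take the longest annotated transcript of each gene. Fos, Fosb and Fosl2 also have shorter ones, down to 631, 1090 and 1707 bases, so theirs are upper limits. The labels number the 24 °C libraries apart from the others, and if they were also made apart, that and the temperature cannot be told apart.

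Of the promoter windows, those of Fos and Jun are shown, since their start is the same base in RefSeq and GENCODE. These genes moved in opposite directions after 1 h of either cytokine at 37 °C. Both are RefSeq sequence of GRCm38.p6, the 250 bases before the transcription start, read 5′ to 3′ along the gene. Capitals mark the motifs found. The Fos window lies at chr12:85473640-85473889 on the plus strand and the Jun window at chr4:95052223-95052472 on the minus strand.
Fos: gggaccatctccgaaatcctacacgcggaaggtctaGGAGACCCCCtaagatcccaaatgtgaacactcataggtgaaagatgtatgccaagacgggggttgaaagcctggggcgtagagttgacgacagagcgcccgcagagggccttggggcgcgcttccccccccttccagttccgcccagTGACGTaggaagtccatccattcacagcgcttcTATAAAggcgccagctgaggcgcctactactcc
Jun: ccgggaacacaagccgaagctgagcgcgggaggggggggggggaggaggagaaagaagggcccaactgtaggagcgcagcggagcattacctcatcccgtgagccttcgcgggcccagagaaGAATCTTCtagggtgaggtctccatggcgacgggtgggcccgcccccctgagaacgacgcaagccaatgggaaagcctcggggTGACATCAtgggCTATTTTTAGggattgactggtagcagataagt
The capitals in Fos are an NF-κB motif on the opposite strand 214 bases before the start, TGACGT, the core of a cAMP response element, 66 bases before it and TATAAA 33 bases before it. Those in Jun are GAANNTTC (a unit pair of a heat shock element, N being any base) 128 bases before the start, TGACATCA, an AP-1-like element, 45 bases before it and a MEF2 motif 33 bases before it. The Fosl2 window has overlapping matches to the NF-κB motif from 182 bases before its RefSeq start, and the Fosb window has 1 at 188 bases. Both strands of 300-base windows, 50 bases beyond the start included, were searched at all 5 genes and in 32851 RefSeq windows. Of the RefSeq windows, 8.46% held the NF-κB motif, 7.51% TGACGT, 13.6% TATAAA, 7.86% GAANNTTC, 3.62% TGACATCA and 0.557% the MEF2 motif. TGACTCA (5.2% of windows), TGACGTCA (1.79%) and a CArG box (1.63%) were not found in the windows of the 5 genes, which says only that these letters are not there. The windows of Fosl2 and Jund begin from RefSeq starts that lie 671 and 1210 bases from the outermost GENCODE start.

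Levels differed most between groups for Fos and Fosb. Fos ranged over the 20 groups by 56.8-fold, with the highest group mean, 89.0 FPKM, in cells at 24 °C with TNF-α for 1 h and the lowest, 1.57 FPKM, at 37 °C with IL-1β for 3 h. Fosb, the gene with the lowest level, spanned 5.74 to 0.103 FPKM and reached 1 FPKM in 24 of 60 libraries. Jun spanned 62.7 to 14.0 FPKM, a 4.48-fold range, Jund 95.7 to 40.8 FPKM (2.34-fold) and Fosl2 126 to 58.1 FPKM (2.17-fold). With the groups put in order of their mean, the replicates of neighbouring groups overlapped in 17 of 19 steps for Fos and Jun, 18 for Fosb, 16 for Fosl2 and 19 for Jund. The open steps in Fos were the lower end of the 24 °C groups: every library at 24 °C held 45.4 to 96.7 FPKM of Fos, and the other 45 libraries held 0.97 to 35.2 FPKM.

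In unstimulated cells the 24 °C step went with higher Fos, Fosb, Jun and Jund, and the 34 °C step with lower Fos and Jun. Fos, the founding member of its family, had 88.0, 61.6 and 66.4 FPKM at 24 °C against 35.2, 24.7 and 11.6 FPKM at 37 °C, without overlap. Its mean was 3.02-fold higher (72.0 ± 14.0 against 23.9 ± 11.8 FPKM, SD, n = 3 each; log2 change 1.66 ± 0.35 SE, adjusted p = 0.000497 by limma over all genes). At 34 °C Fos had 5.13, 4.69 and 7.20 FPKM, below all 37 °C values, and its mean was 4.21-fold lower than at 37 °C (log2 change -1.79 ± 0.35, adjusted p = 0.00556). Without unstimulated replicate 1 at 37 °C that change was -1.45 (adjusted p = 0.118), and without replicate 2 at 34 °C it was -1.68 (adjusted p = 0.0603). At 40 °C Fos had 13.0, 12.3 and 5.39 FPKM, which overlapped the 37 °C range (log2 difference -1.10 with a 95% interval of -1.82 to -0.39, adjusted p = 0.0663).

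Fosb, a close relative of Fos, had 1.38, 1.26 and 1.15 FPKM at 24 °C against 0.21, 0.34 and 0.24 FPKM at 37 °C. All 24 °C values lay above the 37 °C values (mean ratio 4.80, log2 change 0.84 ± 0.24, adjusted p = 0.00892, or 1.92 with 0.1 in place of 1 FPKM added before the logarithm). With 0.1 FPKM added, the called changes of Fosb given in the following paragraphs were also over 1.5 times larger, at 1.19 to 4.96 in size, except for its response to 3 h of TNF-α at 24 °C. Fosl2, which codes for Fra-2, was near level, at 65.5 ± 3.74 FPKM at 24 °C, 60.8 ± 6.77 at 34 °C, 58.1 ± 5.42 at 37 °C and 60.5 ± 2.00 at 40 °C. Its 24 °C and 37 °C values overlapped (log2 difference 0.17, 95% interval 0.04 to 0.31, adjusted p = 0.0629).

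Jun stood at 47.0, 44.6 and 46.4 FPKM at 24 °C against 24.1, 24.8 and 21.2 FPKM at 37 °C, 1.97-fold higher (log2 change 0.95 ± 0.11, adjusted p = 1.5e-08), with the groups far apart. At 34 °C it had 15.3, 12.2 and 14.5 FPKM, 1.67-fold lower than at 37 °C (log2 change -0.71 ± 0.11, adjusted p = 0.000194). At 40 °C it had 18.9, 22.5 and 15.4 FPKM, above the 34 °C values (log2 change 0.40, adjusted p = 0.0132) and overlapping those at 37 °C (log2 difference -0.30, adjusted p = 0.135). The 40 °C against 34 °C call ended without 34 °C replicate 2 (0.31, adjusted p = 0.129) or 40 °C replicate 2 (0.28, adjusted p = 0.175). Jund, the least inducible Jun protein, had 86.6, 58.7 and 57.8 FPKM at 24 °C against 47.9, 50.2 and 41.1 FPKM at 37 °C, and the separation was narrow (log2 change 0.51 ± 0.16, adjusted p = 0.0208). It fell to 0.33 (adjusted p = 0.219) without 24 °C replicate 1, and without 37 °C replicate 3 it was 0.43 (adjusted p = 0.112).

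Against 37 °C, then, 4 of the 5 genes were called at 24 °C, where 20.7% of all genes tested were called, 2 of 5 at 34 °C, where 0.366% were, and 0 of 5 at 40 °C, where 4.14% were. Between 40 and 34 °C 1 of 5 was called, with 9.70% of all genes. The median log2 difference of the 5 genes at 24 °C was 0.84, that of all genes -0.03. With only the compared groups in the fit, the calls for Fosb and Jun at 24 °C were the 2 that passed, and Fos at 24 °C had an adjusted p of 0.0624.

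**Figure D1:**
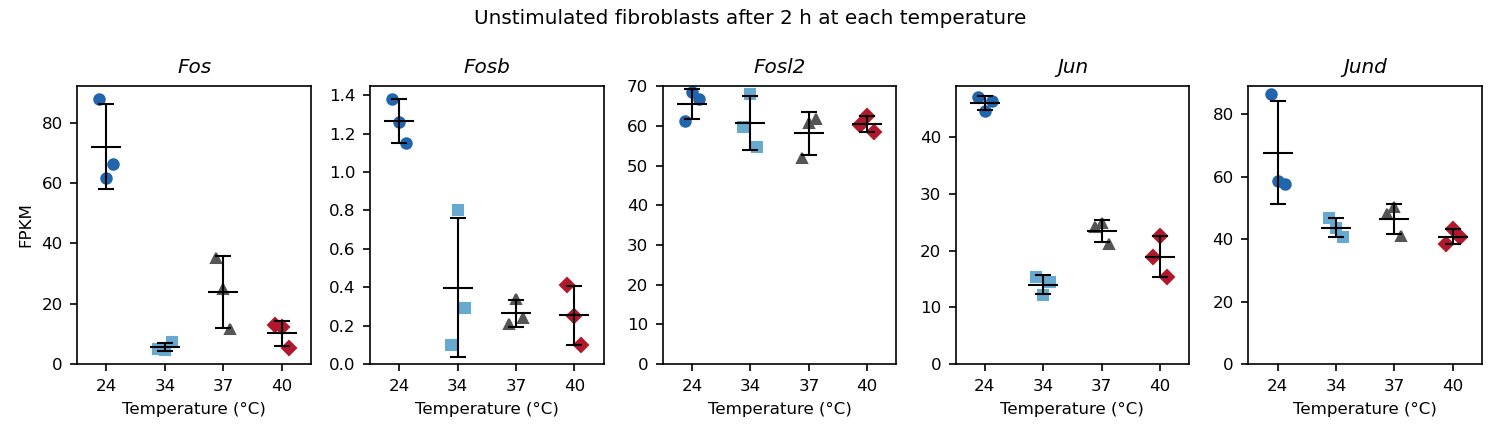
FPKM of each gene in unstimulated fibroblasts by temperature in °C, with 1 point per library and the mean ± SD of 3 replicates as lines. Fos, Fosb and Jun stand apart at 24 °C, Fos and Jun are lowest at 34 °C, and Fosl2 stays between 51.9 and 68.4 FPKM.

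After 1 h of TNF-α at 37 °C, Jun, Fosl2, Jund and Fosb rose and Fos fell. Jun had 59.8, 60.8 and 67.5 FPKM in TNF-α-treated cells against 24.1, 24.8 and 21.2 FPKM in unstimulated cells, and the mean rose 2.68-fold (log2 change 1.39 ± 0.11, adjusted p = 1.69e-13). Fosl2 had 125.6, 125.9 and 126.2 FPKM against 51.9, 60.6 and 61.8 FPKM, a 2.17-fold rise (log2 change 1.11 ± 0.07, adjusted p = 9.26e-18). The treated and unstimulated values of both genes lay far apart. Jund rose 1.67-fold, at 84.3, 84.2 and 63.4 FPKM in treated cells against 47.9, 50.2 and 41.1 FPKM in unstimulated cells (log2 change 0.72 ± 0.16, adjusted p = 0.00403), and its lowest treated library still lay above all unstimulated ones. Without unstimulated replicate 3 at 37 °C the change was 0.63 (adjusted p = 0.0527).

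Fosb had 0.77, 0.78 and 2.66 FPKM with TNF-α for 1 h at 37 °C against 0.21, 0.34 and 0.24 FPKM in unstimulated cells. All treated values were higher, and the third was more than the other two together (log2 change 0.84 ± 0.24, adjusted p = 0.0369). Without that library the change was 0.49 (adjusted p = 0.495), and without any one of the unstimulated libraries at 37 °C it was 0.81 to 0.88 with an adjusted p of 0.072 to 0.122. Fos went the other way, at 4.37, 3.98 and 7.06 FPKM in treated cells against 35.2, 24.7 and 11.6 FPKM in unstimulated cells. The ranges were separate and the mean was 4.65-fold lower (log2 change -1.92 ± 0.35, adjusted p = 0.000147). All 5 genes were thus called at 37 °C, where 2.99% of all genes were.

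The 40 °C response to 1 h of TNF-α had the same directions, with 5 of 5 called against 5.37% of all genes. Fosl2 rose 1.94-fold to 118 ± 4.88 FPKM in treated cells, against 60.5 ± 2.00 FPKM in unstimulated cells (adjusted p = 2.12e-15), and Jun 2.25-fold to 42.7 ± 1.2 FPKM, against 18.9 ± 3.59 FPKM (adjusted p = 5.63e-11). Fosb had 1.38, 1.81 and 2.48 FPKM in treated cells against 0.1 to 0.41 FPKM in unstimulated cells (log2 change 1.2 ± 0.24, adjusted p = 0.000432, or 2.56 with 0.1 FPKM added). Fos fell to 1.84, 3.02 and 4.97 FPKM in treated cells, against 13.0, 12.3 and 5.39 FPKM in unstimulated cells (log2 change -1.37, adjusted p = 0.0101). That call ended without TNF-α replicate 1 (-1.11, adjusted p = 0.122), unstimulated replicate 1 (-1.17, adjusted p = 0.0893) or unstimulated replicate 2 (-1.21, adjusted p = 0.0832). Jund was spread over 109.8, 65.4 and 56.2 FPKM in treated cells, against 38.3 to 43.4 FPKM in unstimulated cells (log2 change 0.84, adjusted p = 0.000322), and without TNF-α replicate 1 the change was 0.56 (adjusted p = 0.0321).

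At 34 °C, 2 of 5 genes were called after 1 h of TNF-α, where 1.72% of all genes were. Jun rose 4.38-fold, the largest of its responses, with 62.4, 61.3 and 60.1 FPKM in treated cells against 15.3, 12.2 and 14.5 FPKM in unstimulated cells (log2 change 2.06 ± 0.11, adjusted p = 2.05e-19). Its treated level overlapped that at 37 °C (61.2 ± 1.18 against 62.7 ± 4.19 FPKM), while its unstimulated level was lower. Fosl2 rose 1.82-fold to 111 ± 5.11 FPKM in treated cells, against 60.8 ± 6.77 FPKM in unstimulated cells (adjusted p = 6.9e-14). Fos had 5.43, 9.14 and 14.99 FPKM in treated cells and 5.13, 4.69 and 7.20 FPKM in unstimulated cells, which overlap.

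At 24 °C none of the 5 genes passed the test after 1 h of TNF-α, a comparison in which 0.168% of all genes passed. Fos had 96.7, 75.6 and 94.6 FPKM in treated cells and 88.0, 61.6 and 66.4 FPKM in unstimulated cells, which overlap (log2 difference 0.31, 95% interval -0.40 to 1.02, adjusted p = 0.85). The treated values of Fosl2, 81.1, 75.2 and 82.3 FPKM, were all above the unstimulated ones, 61.3, 68.4 and 66.7 FPKM (log2 difference 0.28, 95% interval 0.14 to 0.41, adjusted p = 0.0668). Jun (0.36, 0.13 to 0.58) and Fosb (0.76, 0.28 to 1.24) likewise did not overlap but missed the threshold, both with an adjusted p of 0.233. Jund had 95.7 ± 13.1 FPKM in treated cells and 67.7 ± 16.4 FPKM in unstimulated cells, with overlapping replicates (log2 difference 0.51, 95% interval 0.18 to 0.84, adjusted p = 0.258). The intervals of these 4 genes lie above 0, so the missed threshold does not show that they stayed level.

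By 3 h of TNF-α, Fosl2 was higher than in unstimulated cells at each temperature, by 1.49-fold at 24 °C, 1.33-fold at 34 °C, 1.44-fold at 37 °C and 1.3-fold at 40 °C, with adjusted p of 3.09e-08, 6.89e-06, 4.53e-08 and 2.85e-05. At 24 °C Fosl2 had 95.01, 97.7 and 99.5 FPKM in treated cells against 61.3, 68.4 and 66.7 FPKM in unstimulated cells. Fosb at 24 °C had 6.26, 6.17 and 4.78 FPKM, its highest values of all groups, against 1.38, 1.26 and 1.15 FPKM (4.54-fold, log2 change 1.57 ± 0.24, adjusted p = 9.55e-06). Jun rose 2.31-fold at 34 °C, 1.75-fold at 37 °C and 2.59-fold at 40 °C, where it had 49.0, 51.0 and 47.3 FPKM in treated cells against 18.9, 22.5 and 15.4 FPKM in unstimulated cells (log2 change 1.34 ± 0.11, adjusted p = 2.47e-13).

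Fos stood at 1.82, 2.37 and 1.93 FPKM after 3 h of TNF-α at 37 °C, 11.7-fold below the unstimulated mean (log2 change -2.91 ± 0.35, adjusted p = 1.16e-08), and at 1.74, 0.97 and 2.37 FPKM at 34 °C, 3.35-fold below it (-1.32, adjusted p = 0.00693). The 34 °C call ended without TNF-α replicate 2 (-1.12, adjusted p = 0.0639) or unstimulated replicate 3 (-1.17, adjusted p = 0.0503). At 24 °C Fos kept 68.9, 75.8 and 64.9 FPKM in treated cells, overlapping the 61.6 to 88.0 FPKM of unstimulated cells. Jund rose by 1.46-fold at 34 °C, 1.65-fold at 37 °C and 1.45-fold at 40 °C (log2 changes 0.54, 0.71 and 0.52, adjusted p = 0.0222, 0.00124 and 0.0198). Its 34 °C change was 0.45 to 0.54 (adjusted p up to 0.122) without TNF-α replicate 1 or unstimulated replicate 2 or 3, and its 40 °C change 0.43 to 0.50 (adjusted p up to 0.111) without TNF-α replicate 1 or 2 or unstimulated replicate 1. Called members numbered 2 at 24 °C, 4 at 34 °C, 4 at 37 °C and 3 at 40 °C, with 2.42%, 12.6%, 14.0% and 19.3% of all genes called.

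Over both times and all temperatures TNF-α gave 25 calls in 40 tests, 21 higher and 4 lower, with the 4 lower ones all in Fos. In fits of the compared groups alone 20 calls were made, and the ones that ended were Fos (adjusted p = 0.129), Fosb (0.385) and Jund (0.0913) at 37 °C and Fos (0.276) and Jund (0.271) at 40 °C, all after 1 h.

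**Figure D2:**
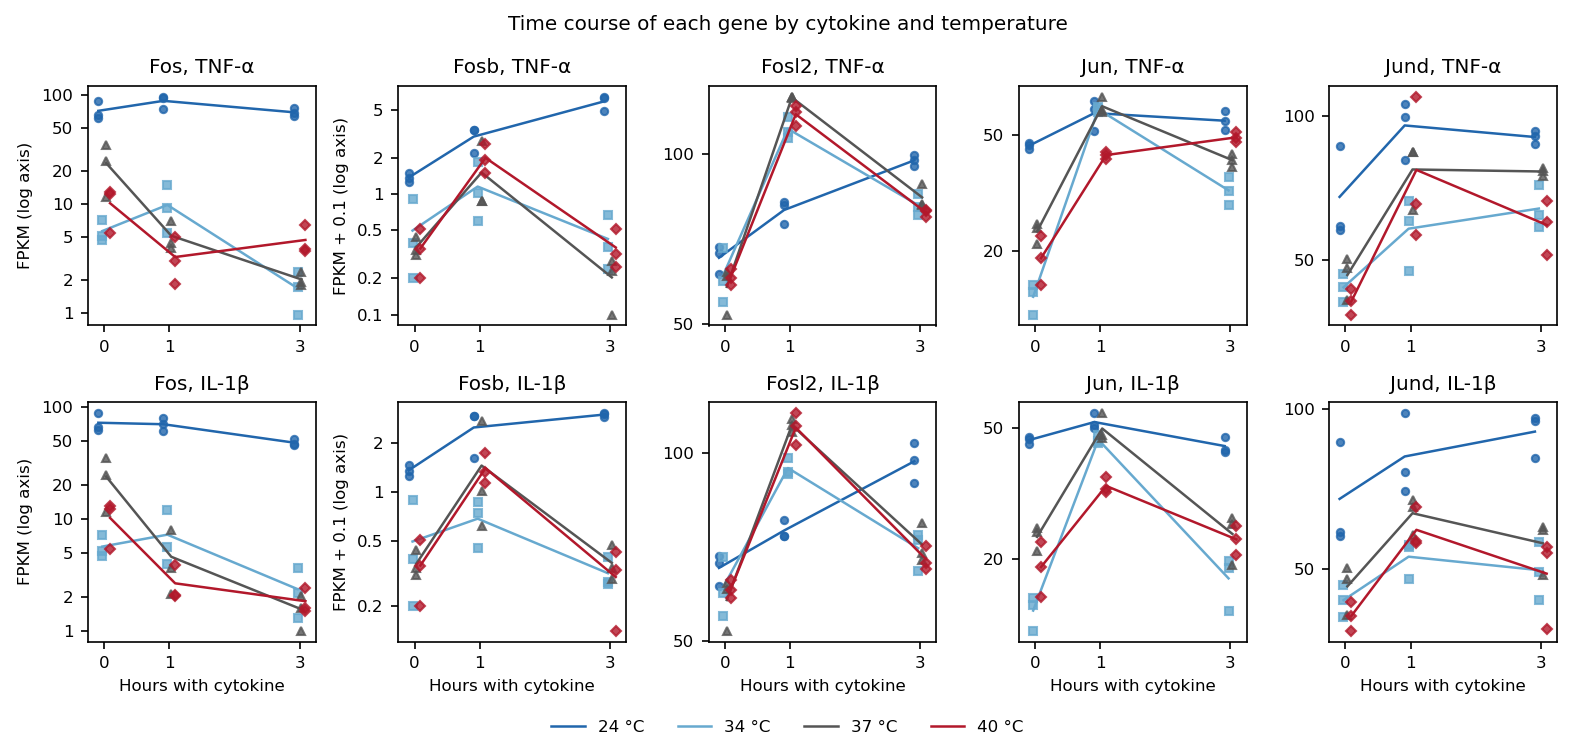
FPKM of each gene (log axis; Fosb with 0.1 FPKM added) against hours with TNF-α (top row) or IL-1β (bottom row), with 1 point per library and lines through the group means at each temperature. Fos at 24 °C stays above 45 FPKM at all times while the other temperatures end below 7 FPKM at 3 h.

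IL-1β gave 13 calls in 40 tests, 9 higher and 4 lower, with the 4 lower ones again in Fos. After 1 h at 37 °C Fosl2 had 113.6, 108.3 and 110.9 FPKM in treated cells against 51.9, 60.6 and 61.8 FPKM in unstimulated cells (1.91-fold, adjusted p = 7.8e-15). Jun had 47.5, 46.6 and 55.4 FPKM against 24.1, 24.8 and 21.2 FPKM (2.13-fold, log2 change 1.06 ± 0.11, adjusted p = 1.01e-09). Fos had 2.14, 3.62 and 8.05 FPKM against 35.2, 24.7 and 11.6 FPKM (5.19-fold lower, log2 change -2.16 ± 0.35, adjusted p = 2.74e-05). In these 3 genes, and in Fosb and Jund as well, the treated and unstimulated libraries were separate. Fosb, at 1.36 ± 1.13 FPKM in treated cells and 0.263 ± 0.07 FPKM in unstimulated cells, missed the threshold (adjusted p = 0.0784), as did Jund (63.7 ± 5.04 and 46.4 ± 4.78 FPKM, log2 difference 0.45, 95% interval 0.12 to 0.78, adjusted p = 0.256).

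At 40 °C after 1 h of IL-1β, Fosl2 rose 1.82-fold to 109.9 ± 6.51 FPKM in treated cells, against 60.5 ± 2.00 FPKM in unstimulated cells, and Jun 1.76-fold to 33.4 ± 1.89 FPKM, against 18.9 ± 3.59 FPKM. Fos fell to 2.08, 2.07 and 3.86 FPKM in treated cells, against 13.0, 12.3 and 5.39 FPKM in unstimulated cells (log2 change -1.56, adjusted p = 0.00351). Fosb rose to 1.31 ± 0.31 FPKM, against 0.253 ± 0.155 FPKM (log2 change 0.88, adjusted p = 0.0229), with 0.78 to 0.90 and an adjusted p of 0.065 to 0.156 when IL-1β replicate 1 or 3 or unstimulated replicate 2 or 3 was left out. At 34 °C Jun rose 3.30-fold (log2 change 1.66 ± 0.11, adjusted p = 6.86e-16) and Fosl2 1.56-fold (adjusted p = 1.05e-09). Jund was not called at 34 or 40 °C, though its replicates were separate. It had 47.9 to 55.4 against 40.7 to 46.7 FPKM at 34 °C and 56.0 to 65.4 against 38.3 to 43.4 FPKM at 40 °C. At 24 °C no member passed. The treated libraries lay above all unstimulated ones for Fosl2 (73.6 to 78.15 against 61.25 to 68.44 FPKM), Jun (49.95 to 55.56 against 44.64 to 46.97 FPKM) and Fosb (1.53 to 2.85 against 1.15 to 1.38 FPKM). The share of all genes that separate in this way was not counted. Fos and Jund overlapped. The missed threshold does not show that the genes stayed level. After 1 h the called members were thus 0 of 5 at 24 °C, 2 at 34 °C, 3 at 37 °C and 4 at 40 °C, with 0.0494%, 1.16%, 1.88% and 3.16% of all genes called.

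After 3 h of IL-1β, Jun at 37 °C was back at 25.7, 19.2 and 26.8 FPKM in treated cells, a range that includes the 21.2 to 24.8 FPKM of unstimulated cells. Fos had 1.01, 1.62 and 2.07 FPKM at 37 °C, 15.2-fold below unstimulated cells and the largest of its responses (log2 change -3.17 ± 0.35, adjusted p = 5.48e-09), and 1.61, 2.42 and 1.52 FPKM at 40 °C, 5.52-fold below (-1.91, adjusted p = 0.000134). Fosl2 was 1.48-fold higher at 24 °C (97.1 ± 7.18 FPKM in treated cells against 65.5 ± 3.74 FPKM in unstimulated cells, adjusted p = 8.11e-08) and 1.23-fold higher at 37 °C (log2 change 0.29, adjusted p = 0.00364). The 37 °C change was 0.23 (adjusted p = 0.071) without IL-1β replicate 1 and 0.21 (adjusted p = 0.0926) without unstimulated replicate 1. At 24 °C Fos had 45.4, 51.9 and 46.5 FPKM in treated cells, all below the 88.0, 61.6 and 66.4 FPKM of unstimulated cells, but was not called (log2 difference -0.56, 95% interval -1.28 to 0.15, adjusted p = 0.604). Fosb at 24 °C had 2.94, 2.81 and 2.98 FPKM in treated cells against 1.38, 1.26 and 1.15 FPKM, apart from each other but short of the threshold (log2 difference 0.79, 95% interval 0.31 to 1.27, adjusted p = 0.0842). Of 5 genes, 1 was called at 24 °C, 0 at 34 °C, 2 at 37 °C and 1 at 40 °C, with 1.42%, 5.28%, 4.35% and 8.65% of all genes. Fits of the compared groups alone left 7 of the 13 IL-1β calls and ended those for Fos (adjusted p = 0.278 and 0.192) after 1 h at 37 and 40 °C, Fosb (0.0835) and Jun (0.092) after 1 h at 40 °C, and Fosl2 (0.0969 and 0.249) after 3 h at 24 and 37 °C.

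**Figure D3:**
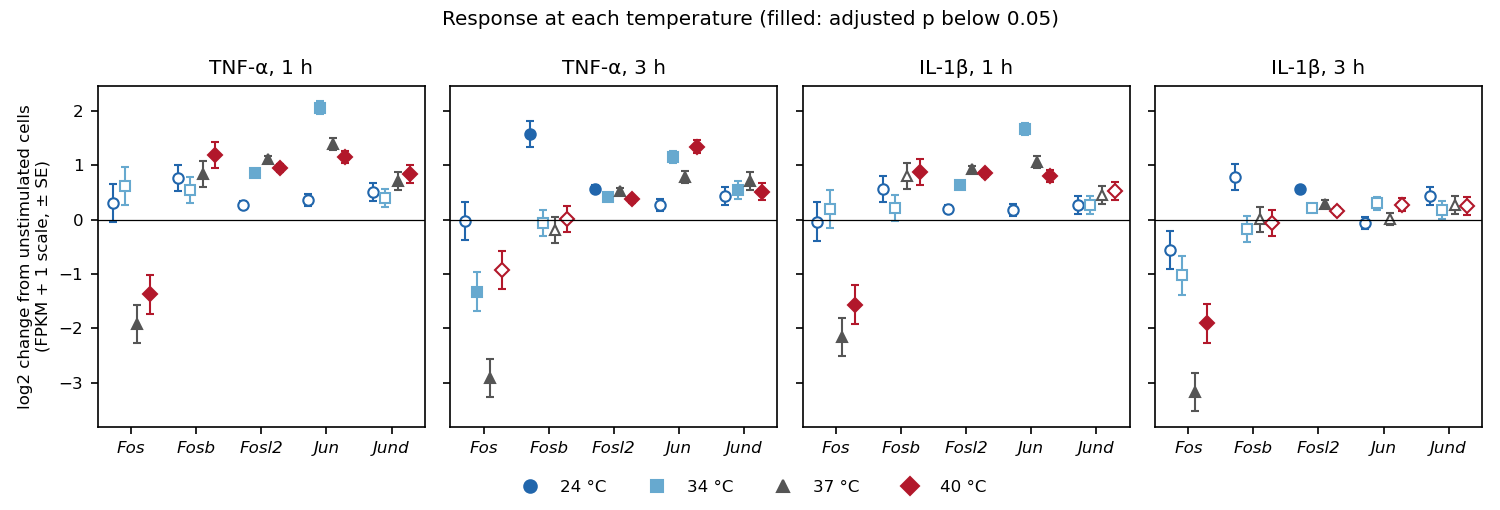
Log2 change ± SE of each gene from unstimulated cells of the same temperature, on the log2(FPKM + 1) scale, for each cytokine and time. Filled points passed the test: Fos is below 0 at 37 °C in all 4 panels and near 0 at 24 °C in 3 of them, and Jun at 1 h is highest at 34 °C.

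Whether the responses themselves differed from those at 37 °C was tested by the difference of log2 changes. Fos differed at 24 °C in all 4 conditions, with no called change at 24 °C and a called fall at 37 °C. The difference was 2.23 ± 0.50 for 1 h of TNF-α (log2 change 0.31 at 24 °C against -1.92 at 37 °C, adjusted p = 0.00569), 2.88 for 3 h of TNF-α (adjusted p = 4.98e-05), 2.13 for 1 h of IL-1β (adjusted p = 0.016) and 2.61 for 3 h of IL-1β (adjusted p = 0.000779). The 1 h IL-1β difference was 1.78 to 2.04 (adjusted p 0.0559 to 0.111) without IL-1β replicate 1 at 24 °C or 37 °C, unstimulated replicate 2 at 24 °C or unstimulated replicate 1 or 2 at 37 °C. The log2 changes of Jun and Fosl2 after 1 h were smaller at 24 °C than at 37 °C. The difference was -1.03 ± 0.16 for Jun and -0.83 ± 0.09 for Fosl2 with TNF-α (adjusted p = 1.44e-05 and 1.26e-08) and -0.88 and -0.73 with IL-1β (adjusted p = 0.000387 and 5.4e-07). Treated Jun overlapped between 24 and 37 °C (59.4 ± 7.04 and 62.7 ± 4.19 FPKM with TNF-α), while unstimulated Jun was higher at 24 °C (46.0 against 23.4 FPKM). Unstimulated Fosl2 overlapped, while treated Fosl2 was lower at 24 °C (79.5 ± 3.79 against 126 ± 0.33 FPKM with TNF-α).

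After 3 h of TNF-α, Fosb rose more at 24 °C than at 37 °C (difference 1.76 ± 0.34, adjusted p = 0.000218, or 3.04 with 0.1 FPKM added), and Jun rose less (-0.51 ± 0.16, adjusted p = 0.0339). The Jun difference was -0.45 to -0.51 with an adjusted p of 0.0563 to 0.112 without TNF-α replicate 2 or 3 or unstimulated replicate 1 or 3 at 24 °C, TNF-α replicate 1 or 3 at 37 °C or unstimulated replicate 3 at 37 °C. At 34 °C Fos differed from 37 °C by 2.55 after 1 h of TNF-α (adjusted p = 0.0174) and by 2.36 after 1 h of IL-1β (adjusted p = 0.0482). The TNF-α difference was 2.21 to 2.55 with an adjusted p of 0.0568 to 0.159 without any one of TNF-α replicates 2 and 3 or unstimulated replicates 1 and 2 at 34 °C, or TNF-α or unstimulated replicates 1 and 2 at 37 °C. The IL-1β difference was 1.96 to 2.46 with an adjusted p of 0.0659 to 0.378 without any one of the same numbered libraries of IL-1β-treated and unstimulated cells, and it missed the threshold with rescaled libraries (adjusted p = 0.0729), without a variance trend (0.0801) and with 0.1 FPKM added (0.101). No response at 40 °C was called different from that at 37 °C for the 5 genes, with 0.138% and 0.306% of all genes called for 1 and 3 h of TNF-α and 0.128% and 0.188% for IL-1β.

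The called members at 24 °C were 3, 3, 3 and 1 of 5 for 1 h and 3 h of TNF-α and 1 h and 3 h of IL-1β, with 1.70%, 7.92%, 0.840% and 2.28% of all genes called. At 34 °C they were 1 of 5 after 1 h of either cytokine, with 0.0593% of genes for TNF-α and 0.0494% for IL-1β. Fits of the compared groups alone ended the Fos calls after 1 h, at 24 °C with an adjusted p of 0.0599 for TNF-α and 0.306 for IL-1β and at 34 °C with 0.509 and 0.881. These tests share the unstimulated libraries at 37 °C, where Fos spread from 11.6 to 35.2 FPKM.

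**Figure D4:**
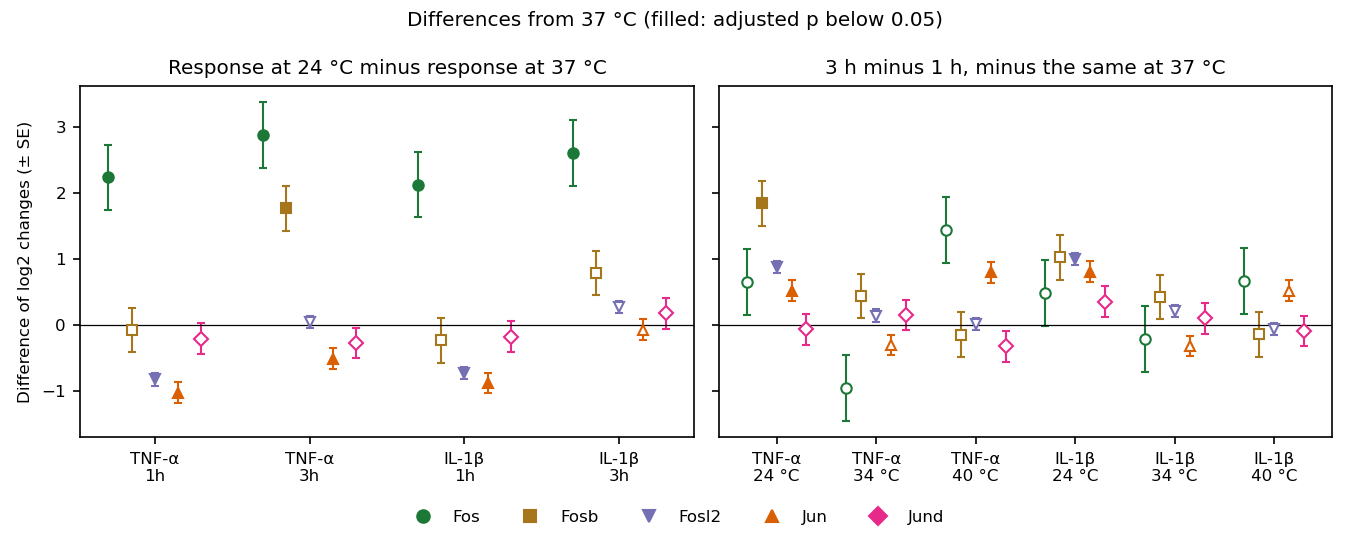
Left, log2 change from unstimulated cells at 24 °C minus that at 37 °C, for each gene and condition; right, log2 change from 1 to 3 h at each other temperature minus that at 37 °C. Points show the difference ± SE on the log2(FPKM + 1) scale, filled where it passed the test. On the left, Fos lies above 2 in all 4 conditions and Jun and Fosl2 lie below 0 at 1 h; on the right, Fosl2 and Jun lie above 0 at 24 °C with either cytokine.

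Between 1 and 3 h of cytokine most calls were downward: 15 of 17 in 40 tests. Of all genes called with TNF-α, 77, 314, 432 and 875 were higher and 65, 343, 429 and 568 lower, from 24 to 40 °C. With IL-1β 30, 98, 116 and 270 were higher and 14, 115, 155 and 261 lower. These splits of all genes depended on scaling. With the libraries rescaled by their median ratio, 107, 361, 434 and 675 were higher and 32, 310, 429 and 699 lower with TNF-α. With IL-1β 35, 97, 87 and 174 were then higher and 8, 118, 173 and 329 lower. Fosl2 fell at 34, 37 and 40 °C with either cytokine, for instance to 83.8 ± 4.07 FPKM at 3 h, against 126 ± 0.33 FPKM at 1 h, with TNF-α at 37 °C (log2 change -0.58 ± 0.07, adjusted p = 8.36e-09). At 24 °C it rose instead, to 97.4 ± 2.27 FPKM at 3 h, against 79.5 ± 3.79 FPKM at 1 h, with TNF-α (0.29, adjusted p = 0.0118) and to 97.1 ± 7.18 FPKM, against 75.1 ± 2.60 FPKM, with IL-1β (0.36, adjusted p = 0.00137). The TNF-α rise was 0.25 (adjusted p = 0.0668) without 1 h replicate 2 and 0.27 (adjusted p = 0.0573) without 3 h replicate 3. The difference from 37 °C was 0.87 ± 0.09 for TNF-α (adjusted p = 5.06e-09) and 1.00 ± 0.09 for IL-1β (adjusted p = 1.16e-10).

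Jun fell between 1 and 3 h of IL-1β at 34 °C (log2 change -1.36), 37 °C (-1.04) and 40 °C (-0.52), with adjusted p of 1.57e-12, 3.5e-09 and 0.00173. It also fell between 1 and 3 h of TNF-α at 34 °C (-0.91, adjusted p = 5.44e-08) and 37 °C (-0.60, adjusted p = 0.000124). At 40 °C with TNF-α it stood at 49.0, 51.0 and 47.3 FPKM at 3 h and 41.5, 42.7 and 43.9 FPKM at 1 h, with no overlap though short of the threshold (log2 difference 0.20, 95% interval -0.03 to 0.42, adjusted p = 0.259). That course differed from the one at 37 °C by 0.80 ± 0.16 (adjusted p = 0.00697). At 24 °C the course of Jun differed from that at 37 °C by 0.80 with IL-1β (adjusted p = 0.00113) and by 0.52 with TNF-α (adjusted p = 0.0347). The last was 0.42 to 0.52 with an adjusted p of 0.053 to 0.12 without 1 h replicate 2 or 3 h replicate 1 or 3 at 24 °C, or 1 h replicate 3 or 3 h replicate 2 or 3 at 37 °C.

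Fosb fell between 1 and 3 h of TNF-α at 37 °C, to 0 to 0.18 FPKM at 3 h, against 0.77 to 2.66 FPKM at 1 h (log2 change -1.04 ± 0.24, adjusted p = 0.00208), and at 40 °C, to 0.15 to 0.41 FPKM, against 1.38 to 2.48 FPKM (-1.19, adjusted p = 0.000346). It also fell with IL-1β at 40 °C (-0.94, adjusted p = 0.0102). With TNF-α at 24 °C it had 5.74 ± 0.83 FPKM at 3 h and 2.88 ± 0.69 FPKM at 1 h, and that course differed from the one at 37 °C by 1.84 ± 0.34 (adjusted p = 0.000165, or 3.77 with 0.1 FPKM added). The fall at 37 °C was -0.69 (adjusted p = 0.0882) without TNF-α 1 h replicate 3. The IL-1β fall at 40 °C was -0.84 without replicate 1 at 1 h (adjusted p = 0.0713) or at 3 h (adjusted p = 0.0627). Fos fell between 1 and 3 h of TNF-α at 34 °C, with 1.74, 0.97 and 2.37 FPKM at 3 h against 5.43, 9.14 and 14.99 FPKM at 1 h (5.82-fold, log2 change -1.95 ± 0.35, adjusted p = 0.000106). Jund was not called in these 8 comparisons.

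From 24 to 40 °C, members called between 3 and 1 h numbered 1, 3, 3 and 2 for TNF-α, where 1.40%, 6.49%, 8.51% and 14.3% of all genes were called, and 1, 2, 2 and 3 for IL-1β, where 0.435%, 2.10%, 2.68% and 5.25% were. The differences of these courses from 37 °C gave 3 calls at 24 °C and 1 at 40 °C for TNF-α (6.85% and 0.366% of genes) and 2 at 24 °C for IL-1β (2.11%). In fits of the compared groups alone 9 of the 17 time calls were left. Those that ended were Fosl2 at 24 °C with TNF-α (adjusted p = 0.156) and IL-1β (0.323) and at 34 °C with IL-1β (0.0671), Jun at 37 and 40 °C with IL-1β (0.0557 and 0.0617), Fosb at 37 °C with TNF-α (0.153) and at 40 °C with IL-1β (0.0555), and Fos at 34 °C (0.0541). The differences of course for Jun at 24 °C had an adjusted p of 0.0573 with TNF-α and 0.0592 with IL-1β there.

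After 3 h, Jun was higher with TNF-α than with IL-1β at 3 of the 4 temperatures. Jun had 49.1 ± 1.88 FPKM with TNF-α against 23.0 ± 2.36 FPKM with IL-1β at 40 °C (log2 difference 1.07 ± 0.11, adjusted p = 7.85e-10). It had 41.0 ± 1.94 against 23.9 ± 4.10 FPKM at 37 °C (0.77, adjusted p = 2.28e-06) and 32.3 ± 3.67 against 17.5 ± 3.10 FPKM at 34 °C (0.86, adjusted p = 4.16e-07). The replicates of the 2 cytokines did not overlap at any of these temperatures. Fosl2 was slightly higher with TNF-α at 37 °C (83.8 ± 4.07 against 71.3 ± 5.31 FPKM, log2 difference 0.23, adjusted p = 0.035) and at 40 °C (78.7 ± 1.22 against 67.6 ± 3.08 FPKM, 0.22, adjusted p = 0.0413). Leaving out IL-1β replicate 2 or 3 or any TNF-α replicate at 37 °C, or IL-1β replicate 1 or 2 or any TNF-α replicate at 40 °C, ended the Fosl2 call, with differences of 0.19 to 0.25 and an adjusted p of 0.0525 to 0.215, and without a variance trend the adjusted p was 0.054 at 37 °C and 0.0604 at 40 °C. Fosb at 24 °C had 5.74 ± 0.83 FPKM with TNF-α and 2.91 ± 0.09 FPKM with IL-1β, without overlap but not called (log2 difference 0.78, 95% interval 0.30 to 1.26, adjusted p = 0.312). At 1 h no member was called at any temperature, and Jun at 37 °C had a log2 difference of 0.33 (95% interval 0.10 to 0.55, adjusted p = 0.674).

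At 3 h the called members numbered 0 at 24 °C, 1 at 34 °C, 2 at 37 °C and 2 at 40 °C, with 0.0889%, 2.42%, 4.14% and 5.56% of all genes called. At 1 h 0.0296% to 0.227% of genes were. Jun at 40 °C was the only one of the 5 calls that passed with only the compared groups in the fit, where Jun had an adjusted p of 0.0929 at 34 °C and 0.0715 at 37 °C and Fosl2 0.263 at 37 °C and 0.091 at 40 °C.

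Among cells with the same cytokine and time, Fos was far higher at 24 °C than at 37 °C. After 3 h of IL-1β it had 45.4, 51.9 and 46.5 FPKM at 24 °C against 1.01, 1.62 and 2.07 FPKM at 37 °C. It was 17.3-fold higher at 24 °C after 1 h of TNF-α, 34.2-fold after 3 h of TNF-α, 15.2-fold after 1 h of IL-1β and 30.6-fold after 3 h of IL-1β. The log2 differences were 3.90, 4.54, 3.79 and 4.27 ± 0.35, with an adjusted p of at most 1.99e-11. Fosb after 3 h of TNF-α had 6.26, 6.17 and 4.78 FPKM at 24 °C against 0 to 0.18 FPKM at 37 °C (55.5-fold in the means, log2 difference 2.61 ± 0.24, adjusted p = 3.66e-12), and after 3 h of IL-1β 2.91 ± 0.09 against 0.267 ± 0.09 FPKM (1.63, adjusted p = 7.7e-07). After 1 h of TNF-α Fosb differed by 0.77 (adjusted p = 0.0126) with overlapping replicates, and by 0.59 to 0.69 (adjusted p 0.0564 to 0.1) without replicate 1 or 3 at 24 °C or replicate 1 or 2 at 37 °C. With 0.1 FPKM added it was 1.19 (adjusted p = 0.0777).

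Fosl2 was lower at 24 °C than at 37 °C after 1 h and higher after 3 h. With TNF-α the 1 h values were 79.5 ± 3.79 FPKM at 24 °C against 126 ± 0.33 FPKM at 37 °C (log2 difference -0.66, adjusted p = 2.13e-10) and the 3 h values 97.4 ± 2.27 against 83.8 ± 4.07 FPKM (0.22, adjusted p = 0.012). The 3 h difference was 0.20 without TNF-α replicate 2 (adjusted p = 0.0518) or 3 (adjusted p = 0.0504) at 37 °C. With IL-1β the log2 differences were -0.56 at 1 h and 0.44 at 3 h (adjusted p = 1.92e-08 and 1.79e-06). Jun was higher at 24 °C than at 37 °C after 3 h of either cytokine, by 0.44 with TNF-α (adjusted p = 0.0022) and 0.87 with IL-1β (adjusted p = 4.87e-08). Jund was higher after 3 h of IL-1β, with 90.6 ± 8.50 FPKM at 24 °C against 55.9 ± 6.25 FPKM at 37 °C (0.69, adjusted p = 0.00138).

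Jun was also lower at 40 °C than at 37 °C after 1 h, with 41.5, 42.7 and 43.9 against 59.8, 60.8 and 67.5 FPKM for TNF-α (log2 difference -0.54, adjusted p = 0.00131) and 33.4 ± 1.89 against 49.9 ± 4.83 FPKM for IL-1β (-0.56, adjusted p = 0.00103). After 3 h of IL-1β Jun was lower at 34 °C than at 37 °C (-0.43, adjusted p = 0.0349) with overlapping replicates. That call ended, at -0.28 to -0.37 with an adjusted p of 0.186 to 0.338, without IL-1β replicate 2 at 34 °C or IL-1β replicate 1 or 3 at 37 °C, and at -0.40 (adjusted p = 0.0679) with the libraries rescaled by their median ratio. At 24 °C against 37 °C, 3, 4, 2 and 5 members were called for 1 h and 3 h of TNF-α and 1 h and 3 h of IL-1β, against 28.3%, 28.5%, 21.9% and 25.5% of all genes. At 40 °C 1 member was called after 1 h of TNF-α (5.55% of genes) and of IL-1β (4.20%), and at 34 °C 1 after 3 h of IL-1β (1.57%). No member was called at 34 °C after 1 h (0.316%) or 3 h (1.75%) of TNF-α or 1 h of IL-1β (0.247%), nor at 40 °C after 3 h of TNF-α (6.35%) or IL-1β (4.80%). Fits of the compared groups alone ended the calls for Fosb after 1 h of TNF-α at 24 °C (adjusted p = 0.163) and for Jun at 40 °C (0.0821 and 0.0868) and 34 °C (0.407).

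Genes around AP-1 were counted on fixed lists, by the same test. In unstimulated cells at 24 °C against 37 °C, where 20.7% of all genes were called, 5 of 7 MAP kinase phosphatases were higher and 0 lower (median log2 difference 0.52, all genes -0.03), among them Dusp4 at 8.47 ± 2.21 against 2.02 ± 0.10 FPKM. Of 7 factors that act on AU-rich mRNAs 4 were higher, with Zfp36, which speeds the decay of such mRNAs, at 29.7 ± 2.9 against 11.5 ± 2.85 FPKM. Of 12 other immediate-early genes 8 were higher and 3 lower, with Egr1 at 184 ± 24.8 against 49.9 ± 28.5 FPKM. Of 12 MAP kinases 3 were higher and 1 lower, and of 6 factors acting on the Fos and Jun promoters 2 were higher and 2 lower. Of 7 other bZIP partners Atf3 was higher (10.2 ± 2.74 against 2.06 ± 0.19 FPKM) and Maf lower. Fosl1 and Junb were not analysed here. Of 10 genes described as AP-1 targets 4 were higher, Lif, Ereg and Timp1 among them.

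After 1 h of TNF-α 2.99% of all genes were called at 37 °C and 0.168% at 24 °C. At 37 °C 6 of the 10 AP-1 targets rose, with Lif at 23.4 ± 1.21 FPKM in treated cells against 1.49 ± 0.91 FPKM in unstimulated cells and Ereg, a ligand of the EGF receptor, at 46.2 ± 6.73 against 9.73 ± 0.90 FPKM, and at 24 °C 0 did. Of the other immediate-early genes 8 rose and 1 fell at 37 °C and 2 rose at 24 °C. No MAP kinase was called at either temperature. The response of Lif differed between 24 and 37 °C by -2.20 (adjusted p = 0.000153) and that of Ereg by -2.10 (adjusted p = 1.88e-10).

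Over the 20 group means of log2(FPKM + 1), the genes most like each member by Pearson's r, among 6534 candidates averaging at least 5 FPKM, were Mcm2 (0.96), Disp1 and Git1 (0.94 each) for Fos and Csrnp1 (0.91), Arl4c and Irf2bp2 (0.90 each) for Fosb. They were Skil (0.91), Ereg (0.91) and Irf1 (0.91) for Fosl2, Ier5 (0.92), Btg2 and Egr2 (0.88 each) for Jun, and Cdc42ep4 (0.88), Ephb4 and Zfp36l1 (0.87 each) for Jund. These values all include the 24 °C groups, where Fos lay above every library of the other temperatures. Mcm2 spanned about 56.5 to 102 FPKM over the groups, far less than Fos. Among the 5 genes Fosb and Jund (0.78), Jun and Jund (0.77), Fos and Fosb (0.71) and Fosl2 and Jun (0.69) were most alike. Without the 24 °C groups, 15 means remain, and Fos and Fosb have an r of 0.05, Fosl2 and Jun 0.85 and Fosb and Fosl2 0.86. The groups share 1 cell line, and these values are given as a description.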

How the data were processed

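RNA was measured in 60 libraries. The authors deposited 1 table of FPKM, which is scaled by transcript length and library size and is not a count. The submitters' processing notes list GRCm39, edgeR, RSEM 1.3.3 and STAR 2.7.11b, with no role or order for each. The gene identifiers carry GENCODE M21 versions, so no coordinates were taken from the table. Whether the counting used strand is not given in the sources used here. Groups came from the labels' temperature and treatment fields. Values were taken as log2(FPKM + 1) and fitted with limma 3.58.1 (R 4.3.3) with 1 mean per group over all 60 libraries, moderated variances with a trend and 40 residual degrees of freedom. The p-values are two-sided and adjusted by Benjamini-Hochberg over 10122 genes within each of 66 comparisons, and called under 0.05. Fold changes understate low genes on this scale; ratios of means are on the FPKM scale. All genes passed a filter of 1 FPKM in 3 libraries. The fit was tested on simulated data with normal noise, 1 spread per gene and changes planted in well-expressed genes only. That test does not cover genes as low as Fosb or groups of unequal spread. Depth was recovered from 1651 genes with 1 transcript, as the value that brought their low levels nearest to whole fragments. At that depth 88.0% of values of 1 to 3 fragments lay within 0.15 of a whole number. Since the depth was chosen by this nearness, the share is no separate check of it. The FPKM were not turned into counts. Alternatives were a pseudocount of 0.1, no filter, a mean of at least 2 FPKM, median-ratio rescaling, no variance trend, the compared groups alone, a replicate block and leaving out each library. The differences of the 3 h minus 1 h change from 37 °C were added after seeing the data. The 5 genes and the lists were chosen with earlier results of these data known. All 5 members are described whatever their values, up to 3 called genes per list and comparison with the largest change are named, and the 3 most similar genes by r for each member. Replicates are biological per the labels, but all come from 1 cell line. Promoter sequences are those of RefSeq for GRCm38.p6, matched by symbol for 5 of 5 members.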

Additional observations from a re-analysis of the deposited data

Results flagged for a closer look

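Each value here is a difference between temperatures in the log2 change of 1 gene, tested over all genes by limma, that passed an adjusted p of 0.05, and is listed because the same contrast gave different changes in 2 temperature groups. For Fos, the response at 24 °C minus that at 37 °C was 2.23 (1 h TNF-α), 2.88 (3 h TNF-α), 2.13 (1 h IL-1β) and 2.61 (3 h IL-1β), and the response at 34 °C minus that at 37 °C was 2.55 (1 h TNF-α) and 2.36 (1 h IL-1β). For Fosl2, the response at 24 °C minus that at 37 °C after 1 h was -0.83 with TNF-α and -0.73 with IL-1β. For Jun it was -1.03 after 1 h and -0.51 after 3 h of TNF-α and -0.88 after 1 h of IL-1β, and for Fosb it was 1.76 after 3 h of TNF-α. These tests at 24 and 34 °C share the 3 unstimulated libraries at 37 °C, where Fos spread from 11.6 to 35.2 FPKM. Both 34 °C calls for Fos ended without single libraries and in limma fits of the compared groups alone (adjusted p = 0.509 and 0.881). Leaving out single libraries also ended the 24 °C calls for Fos with 1 h of IL-1β and Jun with 3 h of TNF-α.

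The change from 1 to 3 h at 24 °C minus that at 37 °C was 1.84 for Fosb, 0.87 for Fosl2 and 0.52 for Jun with TNF-α, and 1.00 for Fosl2 and 0.80 for Jun with IL-1β. For Jun with TNF-α the change at 40 °C minus that at 37 °C was 0.80. The depth of the 24 °C libraries and their separate numbers go with these differences at 24 °C, and their part was not tested.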

How the results depend on the processing

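No called member value changed direction under any alternative run. Of 102 called member values 52 stayed called and within 1.5 times under all alternatives, and 50 were lost or moved in at least 1. With only the compared groups in the fit, calls numbered 2 in unstimulated cells (7 in the shared fit), 7 for IL-1β (13), 1 for TNF-α minus IL-1β (5) and 9 for 3 h minus 1 h (17), in fits with fewer samples, and without a variance trend TNF-α minus IL-1β gave 3. Leaving out single libraries gave 6 to 8 calls in unstimulated cells, 23 to 26 for TNF-α, 12 to 15 for IL-1β, 9 to 13 for response differences from 37 °C (12 with all libraries), 4 to 5 for TNF-α minus IL-1β, 16 to 19 for 3 h minus 1 h and 5 to 7 for its difference from 37 °C (6), and 16 to 18 between temperatures in stimulated cells (17). Fosb has no value at a mean of at least 2 FPKM, since it averages less. Replicate numbers are shared by all groups, and same-numbered libraries hardly deviated together on average (mean r 0.03 to 0.04). For Fos, replicate 3 was the highest library after 1 h of either cytokine at 34, 37 and 40 °C. It was the lowest in unstimulated cells at 37 and 40 °C, but not at 34 °C. Whether the numbers mark a shared day or batch was not tested. A replicate block gave 8, 26, 15, 13, 6, 19, 17 and 6 calls in place of 7, 25, 13, 12, 5, 17, 17 and 6 for unstimulated cells, TNF-α, IL-1β, response differences, TNF-α minus IL-1β, 3 h minus 1 h, stimulated cells by temperature and course differences. Fosb, at 0 to 105 fragments per library if all come from its longest transcript, is limited most by depth.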

Other observations

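In unstimulated cells 0.366% of all genes were called at 34 °C and 4.14% at 40 °C against 37 °C, in the same limma fit. Of 7 other bZIP partners of AP-1, 1 was higher at 34 °C and 2 at 40 °C. Of 12 other immediate-early genes 1 was higher and 3 were lower at each of these temperatures. Atf3, a bZIP partner of Jun proteins, was higher at 34 °C (6.74 ± 1.14 against 2.06 ± 0.19 FPKM at 37 °C, SD, n = 3 each, adjusted p = 0.000147) and at 40 °C (4.84 ± 1.37 FPKM, adjusted p = 0.00309). Egr1, an immediate-early zinc finger factor, was lower at 34 °C (10.2 ± 0.64 against 49.9 ± 28.5 FPKM) and at 40 °C (9.32 ± 2.33 FPKM), with log2 changes of -1.96 and -2.10. Arc, an immediate-early gene, was lower at 34 °C (3.83 ± 1.35 against 10.2 ± 2.66 FPKM) and higher at 40 °C (25.0 ± 8.02 FPKM), with log2 changes of -1.22 and 1.2. Zfp36, which speeds the decay of AU-rich mRNAs, was lower at 34 °C (4.50 ± 0.31 against 11.5 ± 2.85 FPKM, log2 change -1.15, adjusted p = 3.83e-07). Btg2, an immediate-early gene that restrains growth, was lower at 34 °C (12.9 ± 1.24 against 33.5 ± 11.6 FPKM, log2 change -1.25, adjusted p = 3.83e-07). Jdp2, a bZIP partner of Jun proteins, was higher at 40 °C (27.4 ± 5.13 against 20.4 ± 1.88 FPKM, log2 change 0.40, adjusted p = 0.0173), and Klf2 was lower there (9.52 ± 1.11 against 17.0 ± 2.35 FPKM, log2 change -0.77, adjusted p = 0.000235).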
